A study of Saccharomyces cerevisiae with 4 samples.

Results

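The genes described here are 39 nuclear genes for the mitochondrial respiratory chain and ATP synthase of Saccharomyces cerevisiae, chosen by identifier from the complexes they belong to, out of 6679 identifiers in the deposited table. They comprise 4 subunits of complex II (succinate dehydrogenase), 9 of complex III (the cytochrome bc1 complex), both cytochromes c, 9 of complex IV (cytochrome c oxidase), 12 of ATP synthase and 3 NADH dehydrogenases. The study compared growing SK1 yeast with and without a high level of spliced HAC1 mRNA driven exogenously, and the present question is how the mRNAs of the respiratory machinery stood in that comparison. All 4 samples are vegetative SK1 cells of a genotype labelled WT, grown in YPD at 30 degrees to exponential phase (OD600 = 0.6). The 2 control samples received EtOH in volumes matched to 20 nM and 40 nM, and the 2 treated samples received bEST at 20 nM and 40 nM. The labels do not spell out bEST, how HAC1 was driven, the ploidy, or whether the samples of a group were separate cultures. The 2 samples of a group also differ in dose or EtOH volume, which counts as spread in the main fit. The p-values therefore speak only to the spread between these samples, which holds any effect of dose and could otherwise be technical in origin.

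Respiration passes electrons from NADH and succinate to ubiquinone, then through complex III and cytochrome c to complex IV, where oxygen is reduced, and the proton gradient so made drives ATP synthase. Budding yeast has no proton-pumping complex I and uses single-subunit NADH dehydrogenases in its place. Genes of this machinery are known to be repressed by glucose and activated by the Hap2/3/4/5 complex, which binds CCAAT boxes. Several subunits come as alternative isoforms, of which COX5B and CYC7 are the forms known from low oxygen.

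The letters TNATTGGT, a form of the Hap2/3/4/5 site, were looked for on both strands of the 500 bases before each start codon in the R64 reference. They stood in 17 of 39 members (43.6%), against 516 of 6006 nuclear protein-coding genes (8.59%). By group they stood in 5 of 9 complex IV genes, 6 of 12 ATP synthase genes, 3 of 9 complex III genes, 1 of 4 complex II genes, 2 of 3 NADH dehydrogenase genes and neither cytochrome c gene. Stretches of 30 bases from 8 members are shown because they let the shared letters, in capitals, be compared across the complexes. They are written 5′ to 3′ on the strand of the gene, and most hold the motif in its reverse complement, ACCAATNA. The sequences are credited to RefSeq, build R64 of strain S288C, and not to SK1.
SDH1, complex II, chrXI:171429-171458, minus strand: ggcgggggtggACCAATCAcagcgcagaac
QCR7, complex III, chrIV:1496712-1496741, minus strand: atcttgttttgACCAATCAggagcgacgcg
RIP1, complex III, chrV:107001-107030, plus strand: ctccataacggACCAATCAgcgttttgcgc
COX5B, complex IV, chrIX:155138-155167, plus strand: ttaaacaatagACCAATTAtttcaatttaa
COX6, complex IV, chrVIII:209477-209506, plus strand: gaaaagggaccTAATTGGTccggtcaaagc
COX12, complex IV, chrXII:225360-225389, minus strand: tcataacattgACCAATCAattttcagaaa
ATP17, ATP synthase, chrIV:1228370-1228399, plus strand: ttacggagagaACCAATCAtatcgaaggat
NDI1, NADH dehydrogenase, chrXIII:30017-30046, minus strand: tattcattcggACCAATCAtatgaaggcat
A match to these letters describes the sequence and does not show binding. Lack of a match does not show that a site is absent, since other forms were not looked for. The letters CAGCGTG, a core of known Hac1 sites, were in the same window of 0 of 39 members and of 140 of 6006 genes (2.33%). The 17 members with the Hap letters had a median log2 fold change of -0.41 and the 21 other tested members one of -0.37. Over all tested genes the medians were -0.03 with these letters (450 genes) and -0.02 without (4710 genes).

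Levels are RPKM, reads scaled by gene length and sequencing depth, so levels of different genes can be set beside each other. Recovered depth was 1183000 to 4158000 reads, lowest in the bEST sample at 20 nM. HAC1 stood at 487 and 528 RPKM with EtOH and at 5922 and 3712 RPKM with bEST. The 10 meiosis and sporulation genes taken as a check of vegetative growth summed to 12.6 and 19.0 RPKM with EtOH and to 36.3 and 37.3 RPKM with bEST, with 7 of them under the filter on low values. Of the other 3, HOP1 rose, from 0.267 and 0.438 RPKM with EtOH to 13.5 and 12.2 RPKM with bEST (1, 2, 28 and 89 recovered reads, adjusted p = 0.0226), and SPS4 had an unadjusted p of 0.00621. Across all genes the EtOH samples were more alike than the bEST samples, with median absolute log2 differences of 0.18 and 0.37. For brevity, 4 values in a row below are the EtOH sample at the 20 nM volume, the EtOH sample at the 40 nM volume, the bEST sample at 20 nM and the bEST sample at 40 nM.

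Of the 39 members 38 passed the filter of a mean of 5 RPKM, and NDE2 did not. One gene fell with bEST: COX5B, the alternative subunit 5 of complex IV (log2 fold change -1.22 with SE 0.23, limma adjusted p = 0.036). That is 1 of 38 members, where 0.733% of all 5317 tested genes fell, and 0 of 38 rose, where 2.48% of all tested genes did. A broader shift was small: 31 of 38 log2 fold changes were below 0, as were 2763 of 5317 over all tested genes. The median was -0.39, against -0.02 for all tested genes. Both bEST samples lay below both EtOH samples in 23 of 38 members, against 23.9% of all tested genes, and above them in 2 of 38, against 23.0%. The members are mostly short and abundant, and this shift is smaller beside genes of that kind. Lower, separated bEST samples were seen in 76.0% of the 25 members under 600 bases. Among other genes under 600 bases at 200 RPKM or more, the share was 55.1%. With each sample's trend on length removed, the median of the members was -0.17. An unadjusted p under 0.05 was reached by 13 members, all lower with bEST, where 7.28% of all tested genes were so; 0 members reached it on the higher side, where 9.07% did. In bulk RNA, fewer cells of a type and less RNA per cell cannot be told apart. Without the bEST sample at 40 nM 8 members passed the threshold, and without any other single sample 0 did. Over all genes 132 rose and 39 fell, and without the bEST sample at 40 nM 308 rose and 417 fell.

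**Figure D1:**
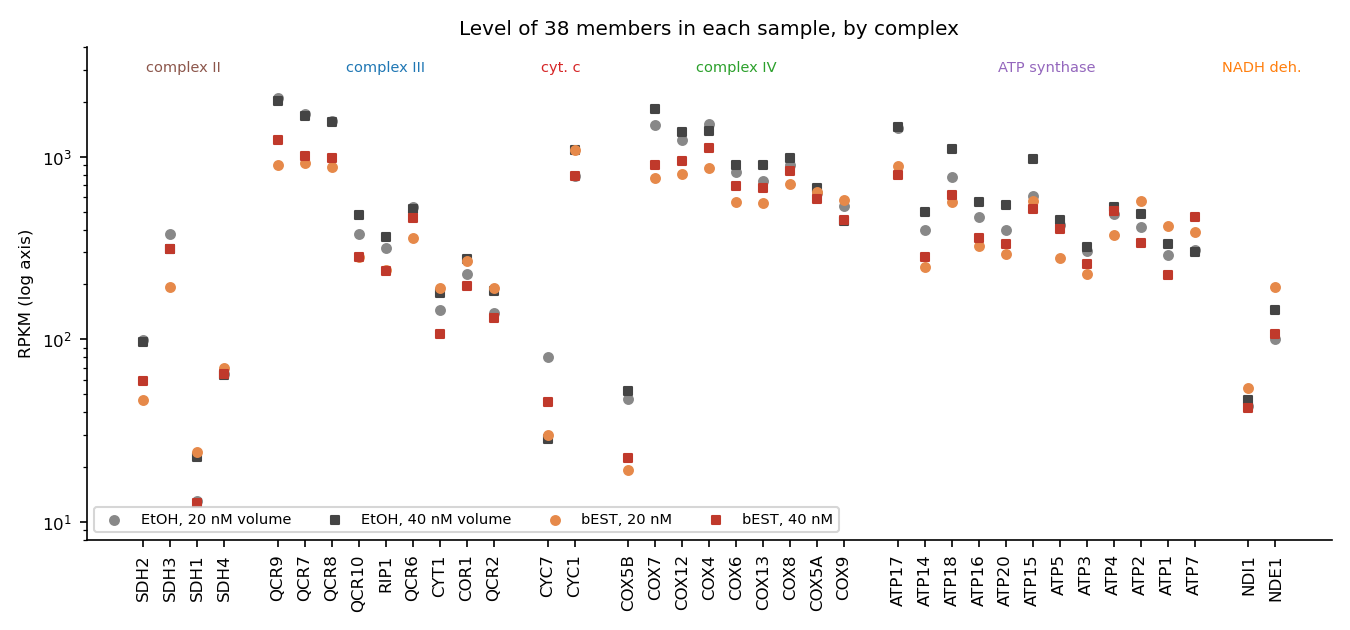
Each column is a member, grouped by complex, and each point is the RPKM of 1 sample on a log axis. EtOH samples are grey and bEST samples orange and red. QCR9, COX7 and COX5B have both bEST points below both EtOH points, while the points of ATP1, QCR2 and CYC1 interleave. NDE2, at 1.07 RPKM or less, is not drawn.

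Complex IV, which passes electrons from cytochrome c to oxygen, held the fall of COX5B (YIL111W). It stood at 47.4, 52.5, 19.2 and 22.5 RPKM, both bEST values being below both EtOH values. These values rest on 40, 54, 9 and 37 reads, and their 95% Poisson intervals were 33.8 to 64.5, 39.4 to 68.5, 8.78 to 36.5 and 15.8 to 31.0 RPKM. The call was narrow: it ended without the EtOH sample at the 20 nM volume (adjusted p = 0.105) or the 40 nM volume (adjusted p = 0.23), or without the bEST sample at 20 nM (adjusted p = 0.0655). A fit with 1 sample left out has a lone sample in that group, which is assumed to vary like the 2 samples of the other group; the SE of COX5B was then 0.45 and 0.46 without an EtOH sample and 0.18 without a bEST sample. It also ended in limma-voom on recovered reads (adjusted p = 0.088), with no filter (adjusted p = 0.0577) and with no variance trend (adjusted p = 0.0607), although the log2 fold change over these fits stayed between -1.30 and -1.12. COX5A (YNL052W), the form of subunit 5 that is the usual one in air, stood at 633, 679, 643 and 588 RPKM (log2 fold change -0.09 with SE 0.20, limma adjusted p = 0.873). Its groups overlapped, and it was the more abundant isoform per length in every sample. COX5B made up 6.96% and 7.17% of the summed RPKM of this isoform pair with EtOH, and 2.90% and 3.68% with bEST. The groups did not overlap in this share. With 2 samples against 2 an exact two-sided permutation test cannot go below p = 0.333, so the share was not tested.

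**Figure D2:**
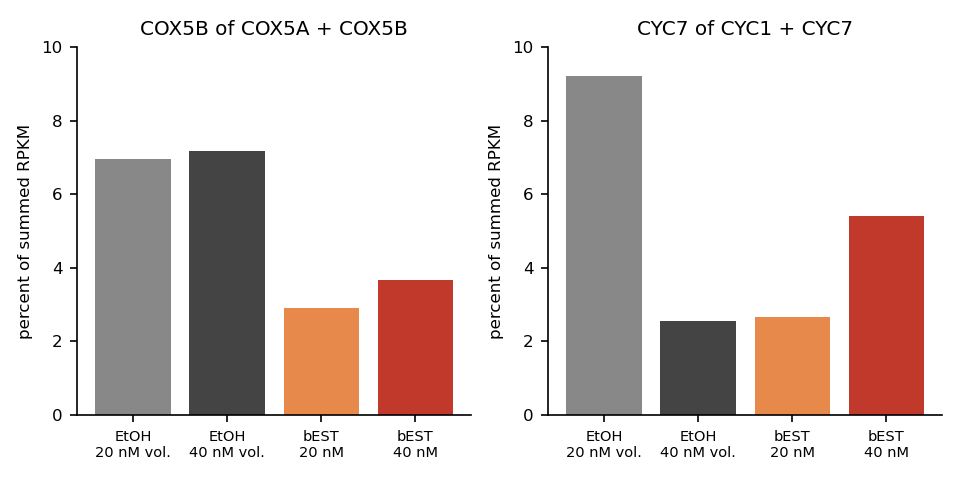
Bars give the share of the less abundant isoform in the summed RPKM of each isoform pair, as a percent, in each of the 4 samples; the axes start at 0. The COX5B share is 6.96% and 7.17% with EtOH against 2.90% and 3.68% with bEST, while the CYC7 share ranges from 2.56% to 9.21% with no separation of the groups.

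The other 7 complex IV members include the most abundant nuclear subunit mRNAs of the complex. COX7 (YMR256C), a small subunit, stood at 1486, 1829.8, 763 and 907 RPKM (log2 fold change -0.99, SE 0.22, unadjusted p = 0.00258, adjusted p = 0.0657). It passed the threshold with median scaling (adjusted p = 0.0453) and in limma-voom (adjusted p = 0.0343). Both bEST samples were at about the same distance below their EtOH samples. COX4 (YGL187C) stood at 1518, 1394, 866 and 1121 RPKM (log2 fold change -0.56, SE 0.22). COX12 (YLR038C), which sits on the intermembrane space side, stood at 1243, 1371, 806 and 946 RPKM (log2 fold change -0.58, SE 0.20). In both of these the groups did not overlap, with unadjusted p = 0.0353 for COX4 and 0.0251 for COX12 and neither past the threshold after adjustment (adjusted p = 0.259 and 0.219). COX6 (YHR051W), COX13 (YGL191W) and COX8 (YLR395C) were likewise lower in both bEST samples, at log2 fold changes of -0.47, -0.41 and -0.29. COX9 (YDL067C) went with none of these: it stood at 539, 446, 578 and 453 RPKM (log2 fold change 0.06, SE 0.24), and its groups overlapped. The median over the 9 genes of complex IV was -0.47. Both bEST samples were below both EtOH samples in 7 of the 9, against 23.9% of all tested genes. Among non-members under 600 bases at 200 RPKM or more, the share was 55.1%.

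Complex III, which moves electrons from ubiquinone to cytochrome c, differed by subunit. The lowest log2 fold changes were those of the small subunits QCR9, QCR7, QCR8 and QCR10. QCR9 (YGR183C) stood at 2115, 2036, 899 and 1232 RPKM, the highest EtOH level of any member (log2 fold change -0.98, SE 0.22, unadjusted p = 0.0031, adjusted p = 0.0716). QCR7 (YDR529C) stood at 1713, 1681, 926 and 1012 RPKM (-0.81, SE 0.19, unadjusted p = 0.0038, adjusted p = 0.0775). QCR8 (YJL166W), needed to assemble the complex, stood at 1565, 1554, 879 and 986 RPKM (-0.74, SE 0.19, unadjusted p = 0.00638). In all 3 the EtOH samples were close together, and both bEST samples lay well below them. QCR10 (YHR001W-A) stood at 377, 482, 282 and 283 RPKM (-0.59, SE 0.23, unadjusted p = 0.0357). RIP1 (YEL024W), the Rieske iron-sulfur protein, stood at 316, 362, 240.0 and 237 RPKM (-0.50, SE 0.22), and QCR6 (YFR033C) had a log2 fold change of -0.36. The remaining 3 are the large subunits. CYT1 (YOR065W), cytochrome c1, stood at 145, 179, 191 and 107 RPKM (-0.17, SE 0.32). The core subunits COR1 (YBL045C) and QCR2 (YPR191W) had log2 fold changes of -0.12 (SE 0.26) and -0.01 (SE 0.28). QCR2, at 139.7, 184, 192 and 131 RPKM, had the bEST sample at 20 nM highest and that at 40 nM lowest, as did CYT1. The median over the 9 genes was -0.50, with 9 of 9 log2 fold changes below 0, as were 2763 of 5317 over all tested genes. Separated, lower bEST samples were seen in 6 of 9 members, against 23.9% of all tested genes. The share was 55.1% among non-members under 600 bases at 200 RPKM or more, though not all 9 are that short. Of the 9 genes 0 passed the threshold. QCR9 and QCR7 did pass it with median scaling (adjusted p = 0.0415 and 0.0496) and in limma-voom on recovered reads (adjusted p = 0.0362 and 0.0436).

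**Figure D3:**
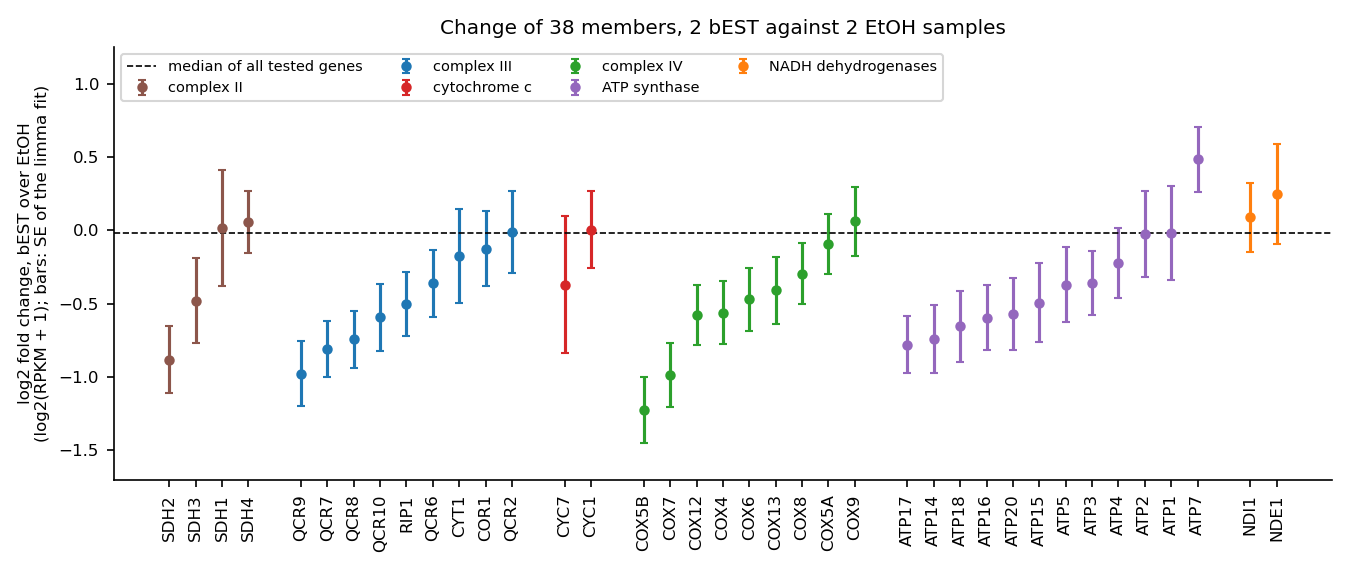
Points give the log2 fold change of each tested member, 2 bEST against 2 EtOH samples, on the log2(RPKM + 1) scale, with bars of 1 SE from the limma fit. The dashed line is the median of all tested genes, -0.02. COX5B is lowest at -1.22 and ATP7 highest at 0.48.

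ATP synthase makes ATP in a soluble F1 head driven by a membrane rotor. The subunits of the catalytic ring, ATP1 (YBL099W, alpha) and ATP2 (YJR121W, beta), had no net difference between the groups. ATP1 stood at 289, 332, 416 and 225 RPKM (log2 fold change -0.02, SE 0.32) and ATP2 at 414, 485, 570.3 and 338 RPKM (-0.03, SE 0.29). In both genes the bEST samples were the highest and the lowest of the 4. The stalk subunits of F1 stood lower with bEST: ATP3 (YBR039W, gamma) at -0.36, ATP16 (YDL004W, delta) at -0.60 and ATP15 (YPL271W, epsilon) at -0.49, each with separated groups. The EtOH samples of ATP15 differed by 0.67 on the log2 scale, more than its groups did. Its log2 ratio was -0.08 at 20 nM and -0.90 at 40 nM. ATP16 stood at 471, 568, 326 and 359 RPKM (SE 0.22, unadjusted p = 0.031, adjusted p = 0.24).

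Among the membrane and peripheral stalk subunits, ATP17 (YDR377W, subunit f) had the lowest log2 fold change. It stood at 1433, 1462, 893 and 796 RPKM (-0.78, SE 0.20, unadjusted p = 0.00531, adjusted p = 0.0903), the highest EtOH level of the enzyme. ATP14 (YLR295C, subunit h) stood at 396, 498, 249.5 and 282 RPKM (-0.74, SE 0.23, unadjusted p = 0.0148). ATP18 (YML081C-A, subunit i/j) stood at 777, 1109, 563 and 617 RPKM (-0.65, SE 0.24, unadjusted p = 0.0309), and its EtOH samples differed by 0.51 on the log2 scale, close to the group difference. ATP20 (YPR020W, subunit g), ATP5 (YDR298C, the oligomycin sensitivity conferring protein) and ATP4 (YPL078C, subunit b) had log2 fold changes of -0.57, -0.37 and -0.22. ATP7 (YKL016C, subunit d) stood apart at 311, 299.5, 389 and 469 RPKM (0.48, SE 0.22, unadjusted p = 0.0637, adjusted p = 0.347). It was higher in both bEST samples and was the 1 ATP synthase gene above 0. The median over the 12 genes was -0.43. Both bEST samples were below both EtOH samples in 8 of 12, against 23.9% of all tested genes. The share was 55.1% among non-members under 600 bases at 200 RPKM or more, though not all 12 are that short.

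Complex II links the TCA cycle to the chain by oxidising succinate, and its genes were the least abundant of the multi-subunit complexes. Median levels of its 4 genes were 81.7, 80.6, 58.2 and 62.1 RPKM, against 827, 907, 643 and 691 RPKM for the 9 of complex IV. SDH2 (YLL041C), the iron-sulfur subunit, stood at 98.7, 97.1, 46.8 and 59.3 RPKM (log2 fold change -0.88, SE 0.23, unadjusted p = 0.00641, adjusted p = 0.1). Its groups did not overlap. SDH3 (YKL141W), a membrane subunit that also serves in protein import, stood at 376, 313, 194 and 312 RPKM (-0.48, SE 0.29), so that the groups nearly touch and the lowest value is that of the bEST sample at 20 nM. SDH4 (YDR178W), the other membrane anchor, stood at 64.6, 64.1, 69.6 and 64.8 RPKM (0.06, SE 0.21), higher in both bEST samples by a difference within the SE. SDH1 (YKL148C), the flavoprotein subunit, was the lowest at 13.1, 22.7, 24.0 and 12.6 RPKM (0.02, SE 0.39), with overlapping groups. The levels of these subunits thus ranged from 13.1 to 376 RPKM in 1 and the same EtOH sample.

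Of the cytochromes c, which carry electrons between complexes III and IV, CYC1 (YJR048W) is the main form. It stood at 787, 1089, 1092 and 789 RPKM (log2 fold change 0.00, SE 0.26). CYC7 (YEL039C) stood at 79.8, 28.6, 30.0 and 45.2 RPKM (-0.37, SE 0.47), with overlapping groups and EtOH samples that differed by 1.45 on the log2 scale. Its share of the summed RPKM of both forms was 9.21%, 2.56%, 2.67% and 5.42%.

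The NADH dehydrogenases deliver electrons to ubiquinone from the matrix side (NDI1 (YML120C)) or the outer side (NDE1 (YMR145C) and NDE2 (YDL085W)) of the inner membrane. NDI1 stood at 43.0, 46.7, 54.2 and 42.0 RPKM (log2 fold change 0.09, SE 0.23) and NDE1 at 101, 145, 193 and 107 RPKM (0.25, SE 0.34). In neither did the groups separate. NDE2 was listed at 0, 0.731, 1.07 and 0.305 RPKM, that is 0, 3, 2 and 2 recovered reads, too few to compare. Of the external enzymes, only NDE1 passed the filter.

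Each dose has 1 sample per treatment, so the ratios of bEST to volume-matched EtOH are given with no test. The median log2 ratio of the 38 members was -0.42 at 20 nM and -0.51 at 40 nM, against -0.10 and 0.07 for all tested genes. At 20 nM 13 of 38 members were at least 1.5-fold lower, where 22.1% of all tested genes were, and at 40 nM 16 of 38 were, where 8.20% were. Both doses put 8 members at least 1.5-fold lower, where 3.74% of all tested genes were: SDH2, QCR7, QCR8, QCR9, COX5B, COX7, ATP14 and ATP17. COX5B had log2 ratios of -1.26 and -1.19. Of the 38 members 24 were below 0 at both doses and 3 above 0 at both (SDH4, COX9 and ATP7), where 28.2% and 28.6% of all tested genes were. A further 10 were higher at 20 nM and lower at 40 nM, where 15.1% of all tested genes were, and in 8 of these each ratio lay beyond its counting interval, where 3.17% of 5178 tested genes with recovered reads did. Among these 8 members were NDE1 (0.93 and -0.43), SDH1 (0.83 and -0.80), ATP1 (0.53 and -0.56) and CYT1 (0.39 and -0.74). CYC7 alone had the opposite order (-1.38 and 0.64), which 28.1% of all tested genes had.

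**Figure D4:**
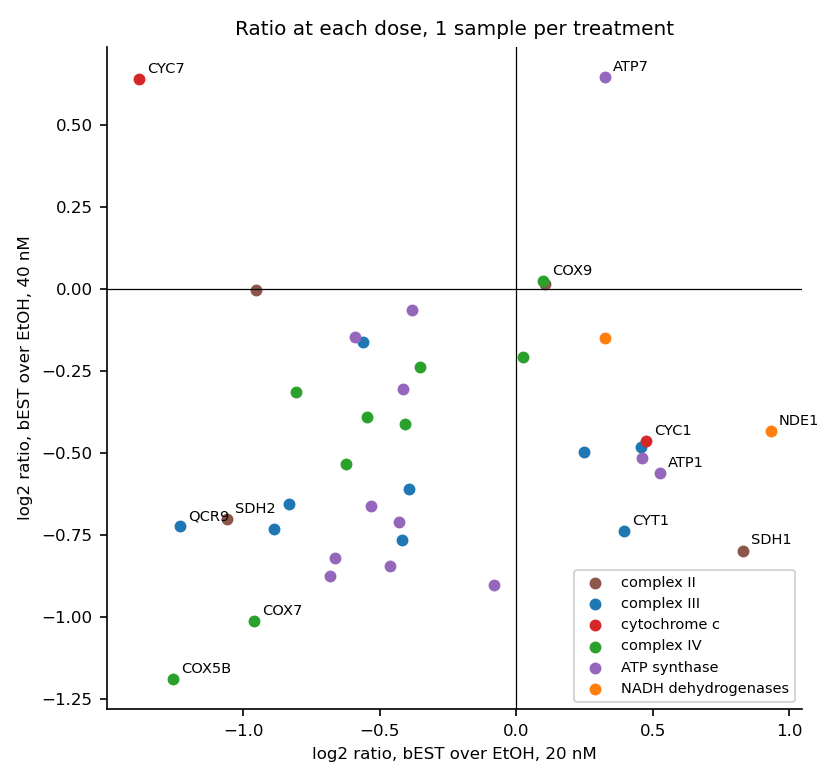
Each point is a tested member, placed by its log2 ratio of bEST to EtOH at 20 nM (horizontal) and 40 nM (vertical), with 1 sample per treatment at each dose. COX5B and COX7 lie at the lower left, and a group with NDE1, SDH1, ATP1 and CYT1 lies at the lower right, above 0 at 20 nM and below 0 at 40 nM.

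Coding length moved with these differences. The members are short, with a median coding length of 462 bases against 1224 bases for all tested genes. Members under 600 bases included COX9, CYC1, COX5A and SDH4, at log2 fold changes of 0.06, 0.00, -0.09 and 0.06. SDH2, of 801 bases, was at -0.88. Across the 38 members, the log2 fold change correlated with log2 coding length at r = 0.53 (Spearman rho = 0.53); these points share the same 4 libraries. Across 5178 tested genes with a known length, r was 0.23 and rho 0.34. The relation was mainly in the ratio at 20 nM, whose bEST library is the shallowest, with r = 0.58 and rho = 0.50 over the members, against r = 0.12 and rho = 0.25 at 40 nM. Over all tested genes r was 0.28 at 20 nM and 0.080 at 40 nM. The 25 members under 600 bases had a median log2 fold change of -0.56, against -0.26 for 902 other genes of that length and -0.32 for the 394 of these at 200 RPKM or more. Separated, lower bEST samples were seen in 76.0% of those 25 members, 41.9% of the 902 genes and 55.1% of the 394. The 13 members of 600 bases or more had a median of -0.12, against 0.02 for 4238 other genes. That median joins opposite values at the doses. Median log2 ratios of these 13 were 0.33 at 20 nM and -0.50 at 40 nM, against -0.05 and 0.10 for the 4238. Those of the 25 shorter members were -0.55 and -0.53. In a fit added after seeing the data, each sample's smooth trend on length was removed. The median of the 38 members was then -0.17, against -0.01 for all genes so fitted. Medians by group were -0.24 for complex III, -0.22 for complex IV, -0.23 for ATP synthase and -0.18 for complex II, while that of the cytochromes c turned to 0.12. COX5B was at -0.98 in this fit and kept its call. The part of length in the members' difference was otherwise not tested.

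**Figure D5:**
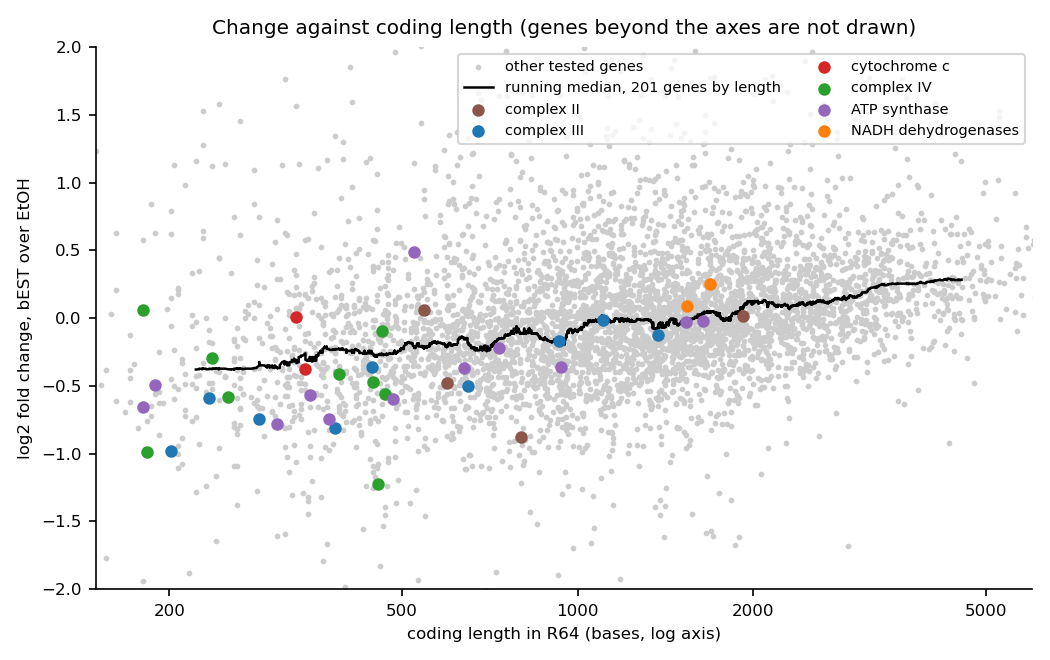
Each point is a tested gene, placed by its coding length in R64 (log axis) and its log2 fold change of bEST over EtOH; members are coloured by complex, other genes are grey, and the black line is a running median. The line rises with length, and members under 600 bases, with a median of -0.56, lie mostly below it.

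The genes that assemble and supply the chain were counted in lists chosen with the members. Over all tested genes 0.733% fell, 2.48% rose and the median log2 fold change was -0.02. Of 24 tested complex IV assembly genes 2 fell, 0 rose and the median was -0.45. PET117 stood at 76.4, 90.4, 35.2 and 30.9 RPKM (log2 fold change -1.31 with SE 0.22, limma adjusted p = 0.0268) and COX23, known from copper supply to the enzyme, at 86.4, 81.6, 38.4 and 40.1 RPKM (-1.08, SE 0.21, adjusted p = 0.0468). Both calls ended without either EtOH sample or without the bEST sample at 20 nM, and with the length trend removed. Of the 8 tested genes of complex III assembly and cytochrome c maturation 0 passed, with a median of -0.71. The lowest was CBP6, at 167, 162, 43.3 and 92.4 RPKM (-1.36, SE 0.36, adjusted p = 0.102). Of 5 complex II assembly genes 0 passed (median -0.39). The 5 subunits and supercomplex factors that the members leave out had 0 calls and a median of -0.45. All 5 were lower in both bEST samples, as were 23.9% of all tested genes. COX26 was barely so, at 446 RPKM with EtOH at the 20 nM volume and 444 RPKM with bEST at 20 nM. The share was 55.1% among non-members under 600 bases at 200 RPKM or more. That class holds TIM11, ATP19 and COX26 but not RCF1, which is less abundant, or RCF2, which is longer. The lowest log2 fold change of the 5 was that of ATP19 (subunit k), at 1008, 1324, 517 and 693 RPKM (-0.95, SE 0.25, limma adjusted p = 0.102).

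Rises lay elsewhere in the pathway, and these lists are small. Of all tested genes 2.48% rose and 0.733% fell. Of 10 tested genes of ATP synthase assembly and inhibition 1 rose and 0 fell, with a median of -0.66. It was STF2, described as stabilising the complex of the enzyme with its inhibitor, at 171, 166, 1560.2 and 1740.1 RPKM (log2 fold change 3.28 with SE 0.21, limma adjusted p = 0.00177). Of 9 heme synthesis genes 1 rose, HEM15, the ferrochelatase that makes heme, at 72.3, 68.9, 426 and 530.1 RPKM (2.73, SE 0.23, adjusted p = 0.00214), and 0 fell (median 0.26). Of 11 ubiquinone synthesis genes 1 rose, the monooxygenase gene COQ6, at 52.0, 46.6, 121 and 133 RPKM (1.35, SE 0.22, adjusted p = 0.0227), and 0 fell (median -0.22). Of 12 tested TCA cycle genes 1 rose and 1 fell (median -0.06). LSC2, a subunit of succinyl-CoA ligase, stood at 73.9, 67.9, 191 and 263 RPKM (1.65, SE 0.25, adjusted p = 0.0175), and the citrate synthase gene CIT1 at 70.7, 67.5, 31.2 and 34.0 RPKM (-1.06, SE 0.21, adjusted p = 0.0497). The calls of STF2, HEM15 and LSC2 held without any 1 sample, in fits whose spread comes from the group that keeps 2. COQ6 lost its call without either EtOH sample, and CIT1 without any sample but the bEST sample at 40 nM.

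The regulators of respiratory genes had 0 calls among 11 tested (median 0.14). HAP4, the activating subunit of the Hap complex, stood at 28.7, 29.8, 40.6 and 25.7 RPKM, with overlapping groups. Translational activators of mitochondrial mRNAs had 0 calls among 11 tested (median -0.27). The mitochondrially encoded subunits of the same complexes had 0 calls among 6 tested. They summed to 224, 217, 511 and 172 RPKM over 7 genes, in libraries made by poly(A) selection. Of the 511 RPKM in the bEST sample at 20 nM, ATP8 gave 253 RPKM, from 26 recovered reads. The ratio of bEST to EtOH was below 0 on the log2 scale in 2 of the 6 at 20 nM (COX2 and OLI1), where 2992 of 5317 tested genes were. At 40 nM it was below 0 in 6 of 6, where 2304 of 5317 tested genes were. OLI1 rests on 8, 2, 1 and 2 recovered reads.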

How the data were processed

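The authors deposited 1 value per gene and sample, and the unit was taken as RPKM: times the R64 coding length less 60 bases, low values were whole multiples of a fixed step. Of values up to 50 reads, 93.1% to 93.8% lay within 0.05 of a whole read. STAR and SAMtools are named per the submitters' processing notes; no counting tool, build, annotation or filter is given there. Of 6679 identifiers 5994 matched R64. limma 3.58.1 in R 4.3.3 fitted log2(RPKM + 1) where the mean reached 5 RPKM, with a variance trend and no covariate; p-values were Benjamini-Hochberg adjusted over 5317 genes (threshold 0.05). Fold changes on this scale understate changes of low genes. Poisson intervals on reads recovered by these steps cover counting error only. No member shared a 50-base window with another place in R64 or overlapped another gene. Named were all members and, per pathway list, genes past the threshold or else up to 2 with the smallest p. HAP4, HEM2, HEM12, HOP1 and SPS4 were chosen after their values were seen. Members and lists were chosen with earlier results of these data known. BCA1 was not matched. The fit was tested on simulated data.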

Additional observations from a re-analysis of the deposited data

Results flagged for a closer look

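In 8 members the ratio of bEST to volume-matched EtOH was above 1 at 20 nM and below 1 at 40 nM. The 95% counting interval of each ratio left out 1. The same held in 3.17% of 5178 tested genes with recovered reads. With 1 sample per treatment and dose, this difference between doses was not tested. The log2 ratio at 40 nM less that at 20 nM was -1.63 for SDH1, -1.37 for NDE1, -1.13 for CYT1, -1.09 for ATP1, -0.98 for ATP2, -0.94 for QCR2, -0.94 for CYC1 and -0.75 for COR1. The shortest of these 8 genes were CYC1, with a coding length of 330 bases, and CYT1, with 930 bases.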

How the results depend on the processing

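Over all genes, 132 rises and 39 falls became 243 and 123 with the replicate block of volume-matched doses, 230 and 76 in limma-voom, 215 rises with the length trend removed, 66 falls with median scaling, 25 falls with no variance trend, and 103 to 308 rises and 26 to 417 falls with 1 sample left out. Members that fell, 1 in the report, were 0 with no filter or no variance trend, 3 with the replicate block (COX5B, COX7 and QCR9) or limma-voom (COX7, QCR7 and QCR9), 4 with median scaling (these 3 and COX5B) and 0 to 8 with 1 sample left out. The labels match EtOH volumes to the bEST doses and state no other pairing. Same-dose deviations from the group means correlated at -0.21 over 5317 genes. With a single difference between doses in each group, this cannot decide whether same-dose samples belong together. The crossed pairing, added after seeing the data, gave 363 rises, 305 falls and 9 members.

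The median of the 38 members was -0.17 with the length trend removed and -0.55 to -0.33 with 1 sample left out. For complex II it was -0.48 at a mean of at least 20 RPKM, -0.30 in limma-voom and -0.36 to -0.28 with 1 sample left out, and for complex IV -0.61 to -0.33 with 1 left out. With the length trend removed it was -0.24 for complex III, 0.12 for the cytochromes c, -0.22 for complex IV and -0.23 for ATP synthase. The cause of these moves was not tested.

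Signs turned in members that passed no threshold: with the length trend removed COX5A (0.15), COX8 (0.052), QCR2 (0.027) and SDH1 (-0.062); with quantile normalization QCR2 (0.023), SDH1 (-0.059), ATP1 (0.031) and ATP2 (0.012); with median scaling CYC1 (-0.022) and SDH1 (-0.010); in limma-voom CYC1 (-0.011) and SDH1 (-0.14). With 1 sample left out, ranges across 0 were -0.11 to 0.24 for COX9, -0.35 to 0.10 for COR1, -0.29 to 0.26 for QCR2, -0.59 to 0.25 for CYT1, -0.23 to 0.24 for CYC1, -1.10 to 0.35 for CYC7, -0.42 to 0.45 for SDH1, -0.46 to 0.42 for ATP1, -0.40 to 0.35 for ATP2, -0.092 to 0.27 for NDI1 and -0.18 to 0.67 for NDE1. Both pseudocounts, 0.1 and 5, kept the sign and the call of all 38 members.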

Other observations

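Other enzymes that meet the chain had 0 calls. CCP1, the cytochrome c peroxidase, stood at 72.7, 79.1, 138 and 169 RPKM (log2 fold change 1.00 with SE 0.23, limma adjusted p = 0.0727), higher in both bEST samples, while SOD1 of the same oxidant defence list had -0.26 (SE 0.21). DLD1, the mitochondrial lactate dehydrogenase for the D form, stood at 87.2, 70.2, 124 and 121 RPKM (0.64 with SE 0.23, limma adjusted p = 0.222). PIC2, a phosphate and copper carrier, stood at 6.67, 16.9, 32.1 and 26.8 RPKM (1.37 with SE 0.41, limma adjusted p = 0.154), and AAC3, an ADP/ATP carrier, at 71.6, 63.2, 21.5 and 54.2 RPKM (-0.95, SE 0.41). HEM12, which acts earlier than HEM15 in heme synthesis, stood at 119, 124, 212 and 244 RPKM (0.90 with SE 0.22, limma adjusted p = 0.0857). HEM2 of the same list went the other way, at 354, 326, 142 and 264 RPKM (-0.81 with SE 0.32, limma adjusted p = 0.271).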
